A study of Homo sapiens with 24 samples.

Results

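Plasminogen is the circulating precursor of plasmin, a protease that degrades fibrin and matrix proteins, and the 8 genes described here encode its activators, their receptor, their serpins and a cell-surface receptor complex. They were chosen by known role: the activators PLAU and PLAT, the receptor PLAUR, the serpins SERPINE2, SERPINB2 and SERPINB5, and the partners ANXA2 and S100A10. All 8 were among the 60617 genes of the table and among the 15476 that had enough counts to be tested. The cells were 686Tu (MDA686TU), a malignant line of squamous cell carcinoma of the head and neck, grown in 4 groups of 6 libraries and harvested after 24 h. The groups were an untreated control, 40 µM EGCG (epigallocatechin gallate, the main catechin of green tea), 15 µM resveratrol (a stilbene of grapes) and the combination of both at these doses. The resveratrol stock was made in DMSO, and water was the solvent of EGCG. Whether the control received DMSO is not stated in the sources used here, so an effect of resveratrol and one of its solvent cannot be told apart. The 2 agents were used at different doses, so their effects are given side by side and were not tested against each other. The comparisons asked what each agent did alone and what the second agent added to the first.

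Urokinase (PLAU) and tissue-type plasminogen activator (PLAT) each cut plasminogen to plasmin. Urokinase acts mostly at the cell surface, where PLAUR holds it, while the annexin A2 complex with S100A10 binds plasminogen and the tissue-type activator. Serpins trap these proteases in inactive complexes, and in carcinoma cells this balance of activators and inhibitors is known for its part in pericellular proteolysis and invasion.

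The libraries held 7034872 to 11735574 counts. The share of mitochondrial transcripts was 0.249% to 0.326% in replicates 1 to 3 of every group and 0.448% to 0.775% in replicates 4 to 6, so values within each set of 3 are given beside some results. All 7 epithelial and squamous markers were present. Their summed normalized counts were 145700 to 154600 in the control, 139400 to 158000 with EGCG, 119200 to 126800 with resveratrol and 117100 to 127200 with the combination, so that both groups with resveratrol lay lower. All 4 leukocyte markers and 2 of 3 endothelial markers had means under 10, and the third, VWF, had 10.3 to 14.4. Of 6 fibroblast markers, 4 had means under 10 (COL3A1, DCN, LUM and PDGFRB), and the summed level of the 6 was 1117 to 1349 in the control, 898 to 1114 with EGCG, 1314 to 1559 with resveratrol and 1526 to 1755 with the combination, nearly all from COL1A1. The part of these marker shifts in the results was not tested. The sources used here do not say whether replicates were separate cultures, so p-values measure the spread between these libraries. In bulk RNA, a change in RNA per cell and a change in the share of cells cannot be told apart.

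On the FPKM scale, which accounts for gene length, the levels in untreated cells spanned a wide range. S100A10 was highest at 365 ± 10.4 (SD, n = 6), followed by ANXA2 at 208 ± 5.45 and PLAU at 140.3 ± 6.52. SERPINB5 followed at 48.9 ± 1.71. These 4 genes exceeded 99.1%, 98.2%, 97.2% and 91.9% of the tested genes. The receptor and the remaining serpins were near the middle, with PLAUR at 7.38 ± 0.895, SERPINE2 at 7.11 ± 0.199 and SERPINB2 at 4.82 ± 0.378. PLAT was lowest at 1.34 ± 0.0817, above 22.8% of the tested genes. Urokinase was thus the abundant activator transcript of these cells and the tissue-type activator a scarce one. The ranges of PLAUR and SERPINE2 overlapped in every group, and no other neighbours in the order overlapped in the untreated group. The order was the same in each group except that SERPINE2 stood above PLAUR with EGCG. The length behind the FPKM values was 1012 bases for S100A10 and 8824 bases for ANXA2. Mean normalized counts in the control were 3221 for S100A10 and 16050 for ANXA2, so the order of these 2 genes depends on the lengths used.

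**Figure D1:**
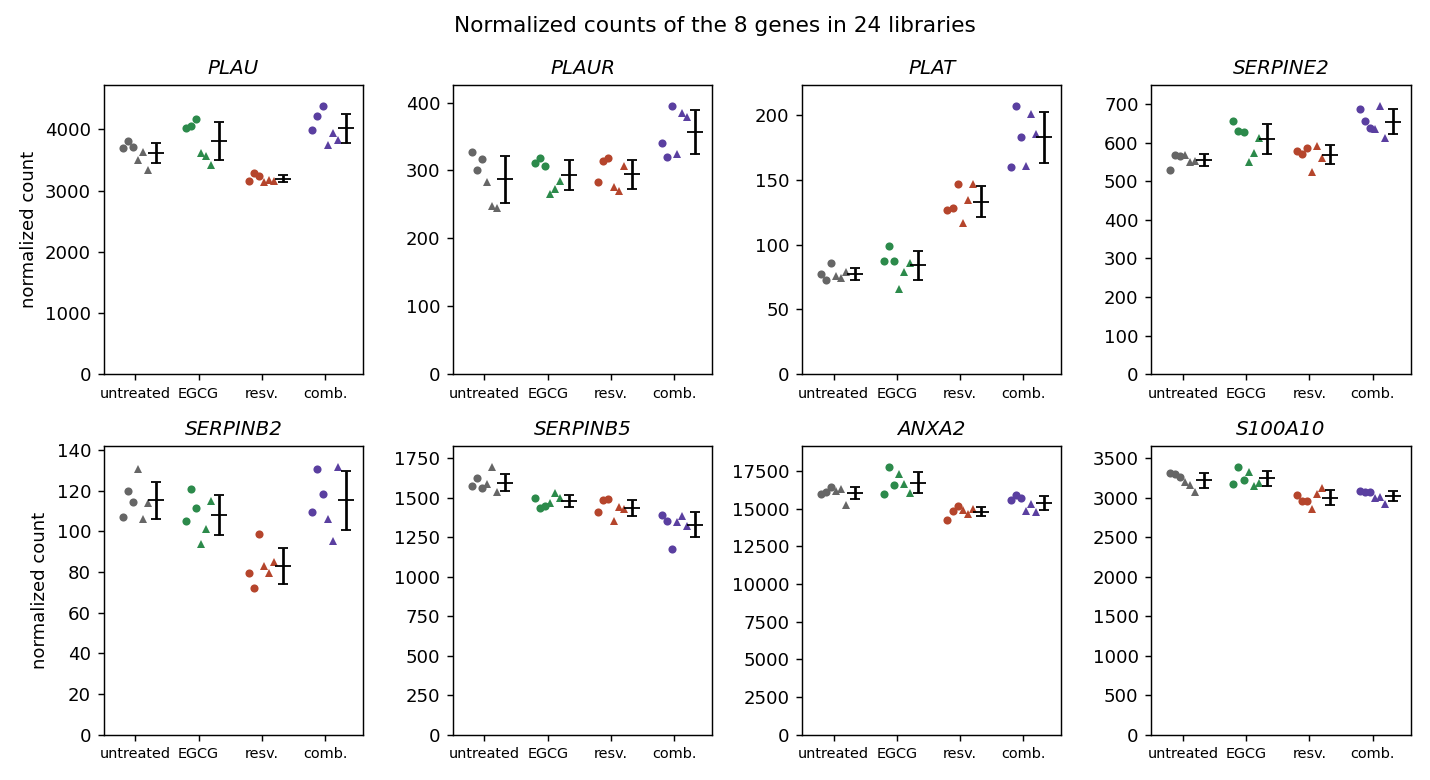
Normalized counts (vertical axes, linear from 0) of the 8 genes in the 24 libraries, by group; circles are replicates 1 to 3, triangles replicates 4 to 6, and bars the mean ± SD of 6 libraries. The combination libraries lie highest for PLAT, at 160.1 to 207, and for SERPINB2 the resveratrol libraries, at 72.2 to 98.7, lie under the untreated ones.

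PLAU, the gene of urokinase (ENSG00000122861, GRCh38 chr10:73909177-73917496, plus strand), fell with resveratrol and rose with the combination. Its normalized counts ranged from 3333 to 3803 in untreated libraries (median 3656) and from 3424 to 4166 with EGCG (median 3823). They ranged from 3143 to 3281 with resveratrol (median 3168) and from 3749 to 4376 with the combination (median 3962). All 6 resveratrol libraries lay under all 6 untreated ones and under all 6 of the combination. The combination and control ranges overlapped slightly. By edgeR's quasi-likelihood test with Benjamini-Hochberg adjustment, PLAU changed by a log2 fold change of -0.17 with resveratrol (SE 0.0412, adjusted p = 0.000601). The combination exceeded the control by 0.16 (SE 0.0411, adjusted p = 0.00141) and exceeded resveratrol by 0.33 (SE 0.0412, adjusted p = 8.76e-07). Against EGCG the combination gave 0.08 (SE 0.041, adjusted p = 0.115) and did not pass, as in 24 of 35 alternatives of the processing. EGCG alone gave 0.08, with a 95% interval of -0.0033 to 0.16 that does not exclude a small rise, and with 0.14 in replicates 1 to 3 and 0.02 in replicates 4 to 6. With library size alone as the scaling, the resveratrol change was -0.08 and no longer passed.

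The long noncoding RNA C10orf55 lies on the opposite strand of PLAU, and the strand setting of the counting is not given in the sources used here. Its mean count was 0.537% of that of PLAU. It held 21.1 ± 5.74 normalized counts in the control and 14.7 ± 1.73 with resveratrol, a log2 fold change of -0.53 (edgeR, Benjamini-Hochberg adjusted p = 0.0226) that passed in neither set of 3 replicates alone.

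PLAT, the gene of tissue-type plasminogen activator (ENSG00000104368, chr8:42174718-42207709, minus strand), showed the largest relative change of the 8 genes. Its normalized counts were 72.5 to 85.8 in untreated libraries (median 76.5), 65.5 to 99.1 with EGCG (median 86.5), 117 to 147 with resveratrol (median 131) and 160.1 to 207 with the combination (median 184). The control and EGCG ranges overlapped, the resveratrol range lay above both, and the combination range lay above all others. The log2 fold change was 0.78 with resveratrol (SE 0.0873, 1.72-fold, edgeR adjusted p = 1.63e-09) and 1.24 with the combination (SE 0.0841, 2.36-fold, adjusted p = 4.18e-15). The combination exceeded resveratrol by 0.46 (SE 0.0759, adjusted p = 0.00012). Replicates 1 to 3 and 4 to 6 alone gave 1.23 and 1.25 for the combination against the control. With EGCG alone the change was 0.12 (95% interval -0.07 to 0.31, adjusted p = 0.732), with 0.21 in replicates 1 to 3 and 0.01 in replicates 4 to 6. The raw counts behind these values were 51 to 209 per library, so counting error is a larger part of the spread than for PLAU.

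PLAUR encodes the urokinase receptor (ENSG00000011422, chr19:43646095-43670547, minus strand), a protein with a lipid anchor that holds urokinase at the cell surface. Its normalized counts were 244 to 327 in untreated libraries (median 292), 265 to 319 with EGCG (median 296), 269 to 318 with resveratrol (median 295) and 321 to 395 with the combination (median 359.9). The first 3 groups shared one range, and the combination libraries lay above all EGCG and resveratrol libraries and, with an overlap, above most untreated ones. The combination exceeded the control by a log2 fold change of 0.32 (SE 0.0677, edgeR adjusted p = 0.000122) and resveratrol by 0.28 (SE 0.0671, adjusted p = 0.00905). The size differed between the sets of libraries: against the control, replicates 1 to 3 gave 0.17 and replicates 4 to 6 gave 0.49, passing in both. Over the 35 alternatives of the processing, the highest Benjamini-Hochberg adjusted p of this comparison was 0.0904, close to the threshold of 0.1. Neither agent alone passed, at 0.03 with EGCG (95% interval -0.11 to 0.17) and 0.04 with resveratrol (95% interval -0.10 to 0.18).

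The upstream sequences of the serpin genes are shown because SERPINB2 and SERPINB5 lie in 1 cluster on chromosome 18 and moved in opposite directions when EGCG was added to resveratrol, while SERPINE2 on chromosome 2 was higher in that comparison, as SERPINB2 was. Each is the 250 bases before the RefSeq start in GRCh38.p14, read 5′ to 3′ on the strand of the gene, and none of these windows holds an annotated exon base. Capitals mark matches to the AP-1 letters TGANTCA (SERPINB2 and SERPINB5), to the TATA letters TATAAA (SERPINB2) and, on the other strand, to the antioxidant response element core TGACNNNGC (SERPINE2).
SERPINB2, chr18:63887455-63887704, plus strand: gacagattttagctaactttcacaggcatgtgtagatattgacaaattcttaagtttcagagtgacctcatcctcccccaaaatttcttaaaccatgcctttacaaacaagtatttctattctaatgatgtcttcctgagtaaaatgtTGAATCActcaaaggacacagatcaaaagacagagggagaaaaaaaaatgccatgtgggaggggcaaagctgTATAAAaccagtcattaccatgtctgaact
SERPINB5, chr18:63476708-63476957, plus strand: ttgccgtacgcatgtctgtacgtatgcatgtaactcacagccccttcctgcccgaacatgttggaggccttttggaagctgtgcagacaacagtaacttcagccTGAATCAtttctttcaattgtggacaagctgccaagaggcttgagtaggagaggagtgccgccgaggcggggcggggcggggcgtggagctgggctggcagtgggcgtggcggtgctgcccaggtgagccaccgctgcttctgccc
SERPINE2, chr2:224031479-224031728, minus strand: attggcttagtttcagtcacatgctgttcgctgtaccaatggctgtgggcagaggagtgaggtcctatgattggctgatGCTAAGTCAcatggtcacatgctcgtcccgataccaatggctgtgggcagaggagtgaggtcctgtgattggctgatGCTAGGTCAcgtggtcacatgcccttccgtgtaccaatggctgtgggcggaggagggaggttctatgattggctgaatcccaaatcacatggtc
Counting the base before the start as -1, the AP-1 match began at -102 in SERPINB2 and at -146 in SERPINB5, the TATA match at -30 in SERPINB2, and the core matches at -171 and -94 in SERPINE2. Both strands were searched in 27305 RefSeq promoter windows of this length, of which 6.60% held the AP-1 letters, 11% the antioxidant core and 11.1% the TATA letters. The NF-kB letters GGGNNTTCC (5.81% of windows) were in none of the 3, and the GC box GGGCGG (42.3% of windows) was in SERPINE2 and SERPINB5. Such matches are a description of letters. The windows of SERPINB2 and SERPINE2 lie inside the annotated span of the gene, before the start of a shorter transcript.

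SERPINE2 (ENSG00000135919, chr2:223975045-224039318, minus strand) encodes protease nexin-1, a secreted inhibitor of thrombin, urokinase and tissue-type activator. Its normalized counts were 529 to 569 in untreated libraries (median 558), 551 to 657 with EGCG (median 621), 524 to 591 with resveratrol (median 574) and 614 to 695 with the combination (median 648). The combination libraries all lay above the control and resveratrol libraries and overlapped those of EGCG. The log2 fold change was 0.24 against the control (SE 0.0422, edgeR adjusted p = 9.88e-06) and 0.20 against resveratrol (SE 0.0419, adjusted p = 0.00235). EGCG alone gave 0.14 (95% interval 0.05 to 0.22, adjusted p = 0.131), which did not pass, and resveratrol alone 0.04 (95% interval -0.05 to 0.12). With library size alone as the scaling the resveratrol value was 0.13 and passed (adjusted p = 0.0138). For EGCG alone, replicates 1 to 3 gave 0.21 and replicates 4 to 6 gave 0.05, passing in neither, and with these sets as a batch term the pooled value of 0.14 passed (adjusted p = 0.0942). It also passed without EGCG replicate 4 (adjusted p = 0.0508), EGCG replicate 5 (adjusted p = 0.0728) or combination replicate 3 (adjusted p = 0.0925). The combination exceeded EGCG by 0.10 (adjusted p = 0.0392), a call that was lost without EGCG replicate 5, combination replicate 1 or combination replicate 5, at 0.08 to 0.09. It was also lost with every gene of at least 1 count tested (0.09, adjusted p = 0.132) and in replicates 1 to 3 alone (0.05), while replicates 4 to 6 gave 0.16.

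SERPINB2 (ENSG00000197632, chr18:63871692-63903888, plus strand) encodes plasminogen activator inhibitor type 2, an inhibitor of urokinase that is mostly kept inside the cell. Its normalized counts were 106 to 131 in untreated libraries (median 114), 93.8 to 121 with EGCG (median 108), 72.2 to 98.7 with resveratrol (median 81.3) and 95.2 to 132 with the combination (median 114). Every resveratrol library lay under every untreated one, whereas the untreated, EGCG and combination ranges overlapped. The resveratrol range also overlapped those of EGCG and the combination. Resveratrol replicate 3, at 98.7, lay above EGCG replicate 4 at 93.8 and combination replicate 5 at 95.2. SERPINB2 fell with resveratrol by 0.47 on the log2 scale (SE 0.0877, edgeR adjusted p = 2.49e-05). The combination exceeded resveratrol by 0.48 (SE 0.0886, adjusted p = 0.000515), and all 6 of its libraries lay above the resveratrol mean. Against the control, the combination gave 0.0083 with a 95% interval of -0.16 to 0.18. EGCG alone gave -0.10 (95% interval -0.27 to 0.08). The annotation holds an overlapping gene on the same strand, ENSG00000289724, which was not analysed here.

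SERPINB5 (ENSG00000206075, chr18:63476958-63505085, plus strand) encodes maspin, a clade B serpin of epithelial cells that does not inhibit proteases in the usual serpin manner. Its normalized counts were 1539 to 1694 in untreated libraries (median 1579), 1436 to 1531 with EGCG (median 1484), 1354 to 1494 with resveratrol (median 1434) and 1176 to 1394 with the combination (median 1349). Every treated library lay under every untreated one, and the combination libraries lay under all EGCG libraries. The log2 fold change from the control was -0.15 with resveratrol (SE 0.035, edgeR adjusted p = 0.000519) and -0.26 with the combination (SE 0.0353, adjusted p = 7.02e-08). With EGCG it was -0.11 (95% interval -0.18 to -0.03), which did not pass at an adjusted p of 0.17. It passed with the replicate number as a block (-0.11, adjusted p = 0.09) and without combination replicate 3 (adjusted p = 0.0591). The combination was lower than resveratrol by -0.11 (adjusted p = 0.0515). That call was lost without combination replicate 3, the lowest library (-0.08, adjusted p = 0.159), and without resveratrol replicate 2 or 3 (-0.10 each). It was also lost with only the groups compared in the fit (-0.12, adjusted p = 0.111). With library size alone as the scaling, the resveratrol change was -0.06 and did not pass, while the combination still did at -0.18.

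ANXA2 and S100A10 had the highest FPKM of the 8 genes, and their changes were small, at most 0.12 on the log2 scale in either direction. ANXA2 (ENSG00000182718, chr15:60347134-60402883, minus strand) encodes annexin A2, a membrane-binding protein, and S100A10 (ENSG00000197747, chr1:151982915-151993859, minus strand) its partner p11, which carries the plasminogen-binding residues. ANXA2 normalized counts were 15270 to 16450 in untreated libraries (median 16140), 15950 to 17760 with EGCG (median 16620), 14260 to 15150 with resveratrol (median 14880) and 14790 to 15890 with the combination (median 15450). The resveratrol range lay just under the untreated one, and the other treated ranges overlapped it. S100A10 normalized counts were 3073 to 3310 in untreated libraries (median 3235), 3150 to 3388 with EGCG (median 3209), 2864 to 3127 with resveratrol (median 2999) and 2922 to 3087 with the combination (median 3039). The resveratrol and combination ranges overlapped the untreated one only at its low end, and both lay under the EGCG range. With resveratrol, ANXA2 changed by -0.11 (SE 0.0257, edgeR adjusted p = 0.000377) and S100A10 by -0.10 (SE 0.0276, adjusted p = 0.00299). With the combination, ANXA2 changed by -0.06 (adjusted p = 0.0409) and S100A10 by -0.09 (adjusted p = 0.00721). With library size alone as the scaling none of these passed: resveratrol gave -0.02 for ANXA2 and -0.01 for S100A10, and the combination gave -0.0046 for S100A10 and, with the sign turned, 0.02 for ANXA2. For S100A10 with resveratrol, replicates 1 to 3 gave -0.13 and passed, and replicates 4 to 6 gave -0.06 and did not.

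The ANXA2 change with the combination was also lost in 7 of the 24 fits that left out 1 library: EGCG replicate 1, 2, 4 or 6, combination replicate 4 or 6, or untreated replicate 5, at -0.04 to -0.05. It was also lost with only the groups compared in the fit (-0.04), with either other filter on low counts (-0.07 and -0.04) and in replicates 1 to 3 alone (-0.03), while replicates 4 to 6 gave -0.09. Processed copies of ANXA2 are near-identical to it, and how reads matching more than 1 gene were counted is not given in the sources used here, so the split between them is uncertain. With the counts of ANXA2P1, ANXA2P2 and ANXA2P3 added to ANXA2, its calls stayed on the same side of the threshold in every comparison. ANXA2P2 held 4753 ± 114 normalized counts in the control, 4221 ± 80.5 with resveratrol and 4414 ± 190.2 with both agents. Resveratrol changed it by a log2 fold change of -0.17 (edgeR adjusted p = 7.27e-06), the same sign as ANXA2.

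**Figure D2:**
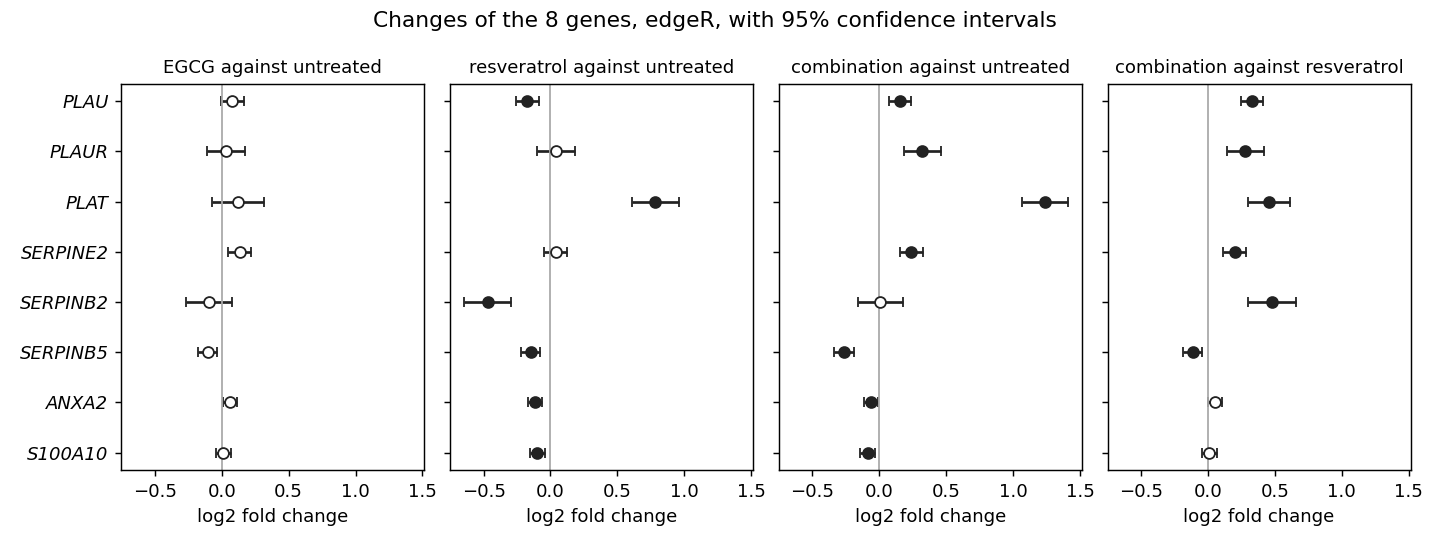
log2 fold changes (horizontal axes) of the 8 genes in 4 comparisons, as edgeR estimates with 95% confidence intervals; filled points passed the test and open points did not. No point is filled for EGCG against untreated, and PLAT lies farthest right for the combination, at 1.24.

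The threshold was a Benjamini-Hochberg adjusted p under 0.1 together with an unadjusted p under 0.05. EGCG alone changed 0 of the 8 genes by edgeR and by DESeq2, where 1.76% of all tested genes passed. At an unadjusted p under 0.05 alone, 3 would have counted, SERPINE2, SERPINB5 and ANXA2, where 1570 of all 15476 tested genes would have. The groups did not overlap for 1 of the 8 genes, SERPINB5, where 1.58% of all genes did not. Resveratrol changed 6 of 8, where 56.9% of all genes passed. Of these, 1 rose and 5 fell, where 28.9% and 28.0% of all genes did, and for 5 the groups did not overlap, where 31.0% of all genes did not. The combination changed 7 of 8 against the control, where 59.8% of all genes passed. Of these, 4 rose and 3 fell, where 29.9% of all genes did in each direction, and for 3 the groups did not overlap, where 31.9% of all genes did not. Against EGCG it changed 6 of 8, where 57.8% of all genes passed, and for 5 the groups did not overlap, where 27.5% of all genes did not. PLAU and SERPINB2 (0.10, edgeR adjusted p = 0.319) did not pass against EGCG. With the greater part of all genes past the threshold, these counts say little about the 8 genes, and the balance of directions leaned on the scaling. With resveratrol, 4466 of 8807 genes that passed were higher, and with library size alone as the scaling 6147 of 9004 were. For the combination the counts were 4633 of 9258 and 6041 of 9352, and for the combination against EGCG 4440 of 8950 and 5737 of 8987.

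The addition of EGCG to resveratrol stood farther from its background. The combination differed from resveratrol in 6 of 8 genes, where 7.86% of all tested genes passed. PLAU, PLAT, PLAUR, SERPINE2 and SERPINB2 were higher, where 4.01% of all genes were, and SERPINB5 was lower, where 3.86% were. The groups did not overlap for PLAU, PLAT, PLAUR and SERPINE2, where 3.20% of all genes did not overlap. The median log2 fold change of the 8 genes was 0.24 and that of all tested genes -0.0011. These counts describe genes that were chosen with earlier results known. ANXA2 gave 0.05 (95% interval -0.0014 to 0.10) and S100A10 0.01 (95% interval -0.05 to 0.07), so a change in either was small if present. Of the 6 calls, PLAUR did not pass in replicates 1 to 3 alone (0.21, adjusted p = 0.167) and SERPINB5 did not pass in replicates 4 to 6 alone (-0.06, adjusted p = 0.677).

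Whether EGCG acted differently with and without resveratrol was tested by the interaction, the log2 fold change made by EGCG beside resveratrol minus that made by EGCG alone. It passed for 2 of the 8 genes, where 0.265% of all tested genes passed. For SERPINB2 the change was -0.10 without and 0.48 with resveratrol, an interaction of 0.57 (SE 0.122, edgeR adjusted p = 0.0253). The estimate from replicates 1 to 3 was 0.54 and that from replicates 4 to 6 was 0.62, and neither set of 3 passed alone. For PLAU the change was 0.08 without and 0.33 with resveratrol, an interaction of 0.25 (SE 0.0581, adjusted p = 0.0589), with 0.24 in replicates 1 to 3, which did not pass, and 0.26 in replicates 4 to 6, which did. The PLAU call lay near the threshold. It was lost with library size alone (0.24, adjusted p = 0.107) and at an adjusted p under 0.05. It was also lost in 8 of 24 fits, those without untreated replicate 1, 2 or 3, EGCG replicate 4 or 5, resveratrol replicate 1 or 6, or combination replicate 2, with adjusted p of 0.10 to 0.14. PLAT (0.34, 95% interval 0.09 to 0.58, adjusted p = 0.435) and PLAUR (0.25, 95% interval 0.05 to 0.44, adjusted p = 0.493) had estimates of like size that did not pass. SERPINE2 gave 0.06 (95% interval -0.06 to 0.18). SERPINB5, ANXA2 and S100A10 lay between -0.01 and -0.00045, each with an interval within 0.11 of 0.

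**Figure D3:**
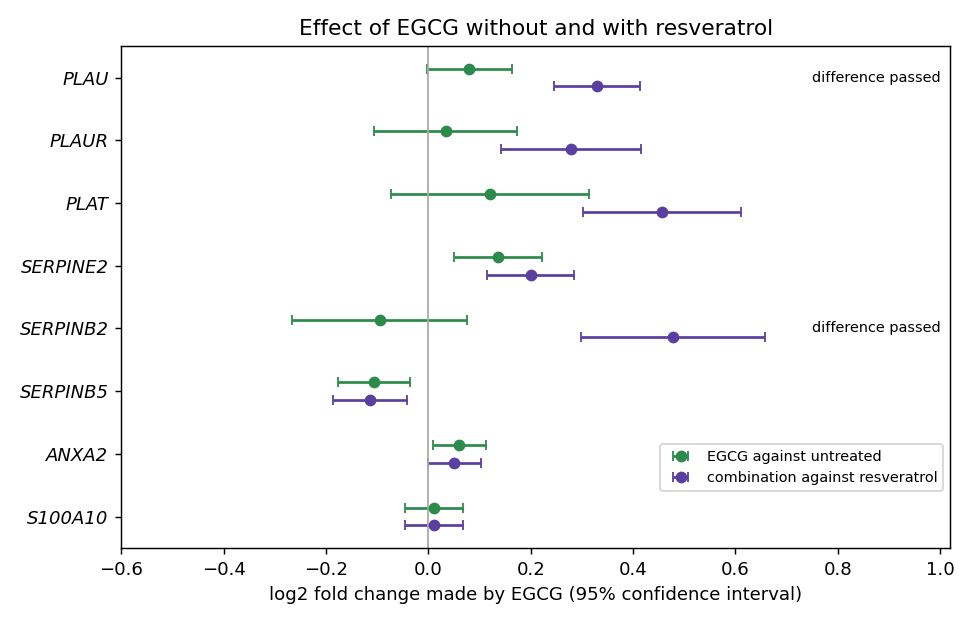
log2 fold change made by EGCG (horizontal axis, with 95% confidence intervals) without resveratrol (green, EGCG against untreated) and with it (purple, combination against resveratrol) for the 8 genes; "difference passed" marks an interaction past the threshold. The points of SERPINB2 lie at -0.10 and 0.48 and those of PLAU at 0.08 and 0.33.

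The wider pathway was described with 5 lists of 46 genes in all, of which 34 were tested. With the combination against the control, 31 of 34 passed (91.2%), 20 upward and 11 downward, where 59.8% of all tested genes passed, 29.9% in each direction. The counts per list below are to be read against these shares. With EGCG alone 3 passed (8.82%), where 1.76% of all genes did. These were VLDLR (0.37, edgeR adjusted p = 0.00297), ITGA5 (0.18, adjusted p = 0.0279) and KRT8 (0.16, adjusted p = 0.00215). All 3 rose, without overlap with the control. ITGA5, an integrin subunit, is named after its values were seen. With resveratrol 24 passed (70.6%), where 56.9% of all genes did. Between the combination and resveratrol 13 passed (38.2%), 7 upward and 6 downward, where 7.86% of all genes passed. The lists, like the 8 genes, were chosen with earlier results of these data known, so these shares are descriptions. PLG, the gene of plasminogen, was under the filter, with group means of 0.131 to 0.654 normalized counts.

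Among the other inhibitors listed, 3 of 7 genes were tested and all 3 rose with the combination. SERPINI1, the gene of neuroserpin, an inhibitor of tissue-type activator, rose by 1.05 (edgeR adjusted p = 5.62e-08), SERPINB6 by 0.50 and SERPINB8 by 0.31. Of 5 tested plasminogen-binding proteins, KRT8 (keratin 8) rose by 0.14, and HMGB1 (-0.49), AHNAK (-0.26) and ENO1 (enolase 1, -0.25) fell. PLGRKT, the plasminogen receptor with a C-terminal lysine, gave -0.22 and did not pass (adjusted p = 0.115). With resveratrol alone, SERPINI1 gave 1.11, SERPINB6 0.57, SERPINB8 0.29, HMGB1 -0.39, AHNAK -0.30 and ENO1 -0.31, and all passed. KRT8 gave 0.03 with resveratrol alone and did not pass. Between the combination and resveratrol, KRT8 (0.11) and HMGB1 (-0.10) passed and the other genes of this paragraph did not.

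Of 11 tested receptor and clearance genes, 8 rose and 3 fell with the combination. MRC2, a collagen receptor associated with PLAUR, rose by 1.01, the vitronectin-receptor subunit ITGAV by 0.58 and the lipoprotein receptor VLDLR, which takes up protease-serpin complexes, by 0.48. The sorting receptor SORL1 (-0.30) and the integrin subunits ITGA3 (-0.18) and ITGB1 (-0.14) fell, the last of which did not pass with library size alone as the scaling (-0.06) or in replicates 4 to 6 alone (-0.07). Of 8 tested genes of proteases that activate pro-urokinase or act upstream of it, and of their inhibitors, 6 rose and 1 fell. The membrane serine proteases PRSS8 (prostasin, 1.26) and ST14 (matriptase, 0.56) and the lysosomal protease CTSB (cathepsin B, 0.56) rose, and F12 (coagulation factor XII) fell by 0.70. SPINT1, an inhibitor of matriptase on this list, rose by 0.52 and is named after its values were seen. The medians of the 4 lists were 0.50 for inhibitors, -0.25 for binding proteins, 0.26 for receptors and 0.44 for these proteases with their inhibitors, beside -0.0015 for all tested genes. With resveratrol alone, MRC2 gave 1.045, ITGAV 0.48, VLDLR 0.28, PRSS8 1.10, ST14 0.52, CTSB 0.54 and SPINT1 0.36. SORL1 (-0.38), ITGA3 (-0.28), ITGB1 (-0.22) and F12 (-0.47) fell with it. Between the combination and resveratrol, VLDLR (0.20), ITGA3 (0.10), SPINT1 (0.16) and F12 (-0.23) passed. MRC2, ITGAV, SORL1, ITGB1, PRSS8, ST14 and CTSB did not.

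SERPINB2 and SERPINB5 were set beside the 9 other clade B serpins that were tested, since 8 of these 11 genes lie in 1 cluster on chromosome 18 and the other 3 on chromosome 6. With the combination against the control 4 of the 9 rose and 4 fell. All 3 genes on chromosome 6 rose, SERPINB9 (an inhibitor of granzyme B) by 1.36, SERPINB1 (an inhibitor of neutrophil elastase) by 0.50 and SERPINB6 by 0.50. On chromosome 18, SERPINB8 rose by 0.31 whereas SERPINB3 (-0.69), SERPINB4 (-0.61) and SERPINB13 (-0.38) fell, as SERPINB5 did. In replicates 1 to 3 alone, SERPINB8 (0.21, adjusted p = 0.23) and SERPINB4 (-0.43, adjusted p = 0.226) did not pass, and SERPINB3 was -0.33 there and -1.03 in replicates 4 to 6. SERPINB3 and SERPINB4 are near-identical, so the split of reads between them is uncertain.

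Between the combination and resveratrol, 0 of the 9 other clade B genes were higher and 4 were lower, where 4.01% and 3.86% of all genes were. The 4 were SERPINB11 (-0.80, edgeR adjusted p = 0.00905), SERPINB3 (-0.53, adjusted p = 0.00679), SERPINB13 (-0.32, adjusted p = 0.0297) and SERPINB7 (-0.26, adjusted p = 0.0196). All lie on chromosome 18, between SERPINB5 and SERPINB2. Of these calls, that of SERPINB3 was kept in both sets of 3 replicates, while in replicates 4 to 6 alone SERPINB11 (-0.39, adjusted p = 0.57), SERPINB13 (-0.26, adjusted p = 0.354) and SERPINB7 (-0.20, adjusted p = 0.316) did not pass. SERPINB7 and SERPINB11 are named after their values were seen. SERPINB3 lies within the span of SERPINB11 on the opposite strand, and SERPINB11 was low, with means of 28.4 ± 3.61 normalized counts with resveratrol and 16.6 ± 5.83 with the combination. Against the control, SERPINB11 rose by 0.76 with resveratrol (edgeR adjusted p = 0.000901). With the combination it gave -0.04 against the control and did not pass (adjusted p = 0.889).

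**Figure D4:**
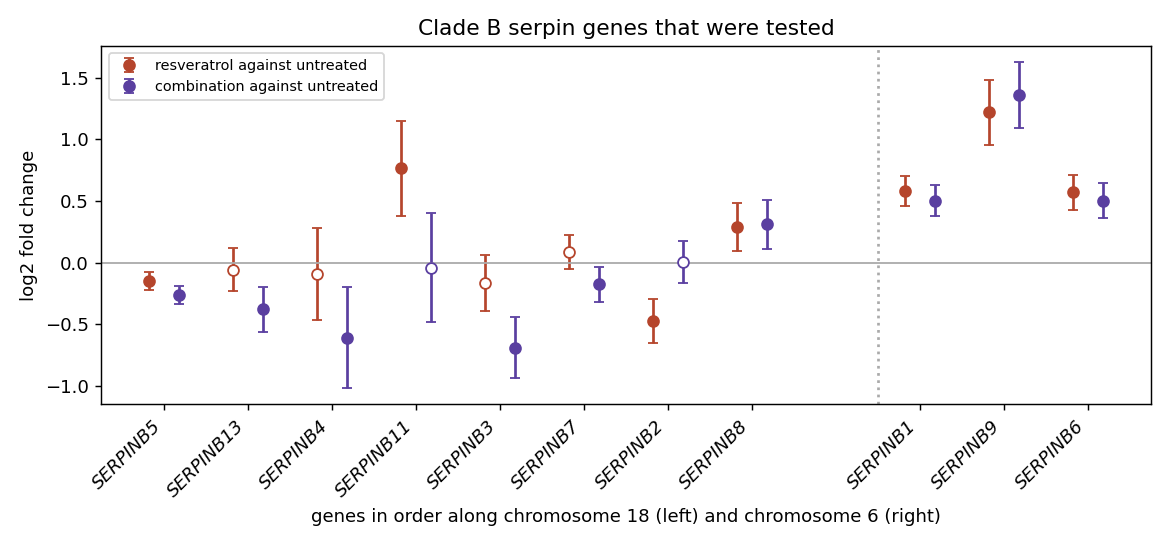
log2 fold changes from the untreated control (vertical axis, with 95% confidence intervals) of the 11 tested clade B serpin genes in their order along chromosome 18 and chromosome 6, evenly spaced; filled points passed and open points did not. SERPINB2 is low with resveratrol (-0.47) and near 0 with the combination (0.0083), and the 3 genes on chromosome 6 are high with both.

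Across the 24 libraries, the log2 CPM of the 8 genes followed different genes of the table. These correlations hold the differences between the 4 groups and are descriptions. PLAT was closest to TRIB3 (Pearson r = 0.975), a pseudokinase gene of the ATF4 stress response, and to MAP1LC3B (0.974), an autophagy gene. PLAU was closest to CALR (0.88), which encodes the chaperone calreticulin, and TNIP1 (0.88), and PLAUR to PPIF (0.805) and UPP1 (0.797). SERPINE2 was closest to KCTD11 (0.868) and TNFAIP3 (0.86), SERPINB2 to HAS3 (0.796) and MARK3 (0.779), and SERPINB5 to NAA15 (0.925) and YWHAQ (0.921). ANXA2 was closest to the ribosomal protein gene RPS14 (0.932) and CHCHD2 (0.932), and S100A10 to the ribosomal protein genes RPL11 (0.931) and RPS3 (0.922). Among the 8, the closest pair was ANXA2 and S100A10 (0.826) and the most opposed was PLAT and SERPINB5 (-0.791).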

How the data were processed

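RNA-seq of 686Tu cells was analysed in 4 groups of 6 libraries. The authors made stranded mRNA libraries, trimmed the reads with Trimmomatic 0.36 and aligned them with HISAT2 2.0.4 to GRCh38. The counting program, annotation release and strand setting are not given in the sources used here. The authors deposited raw counts per gene, normalized counts (a signal per gene, checked to be the raw counts over 1 size factor per library) and FPKM values. Raw counts were used for every test, normalized counts for values per library, and FPKM for levels between genes.

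Models used edgeR 4.0.16 (R 4.3.3) on all 24 libraries, with TMM, filterByExpr, the quasi-likelihood test, group as the only term and Benjamini-Hochberg adjustment over 15476 genes. A gene passed at an adjusted p under 0.1 and p under 0.05. At totals of 7034872 to 11735574 counts, precision is lowest for PLAT and SERPINB2. The 8 genes, the lists and the alternatives were chosen with earlier results of these data known. The results of 1 further gene are not reported here. From each list, up to 3 risen and 3 fallen genes with the largest change under the combination were named, with near-identical or overlapping genes and the 2 most alike genes per member. DESeq2 1.42.0, other scalings and filters, a stricter threshold, only the groups compared, a replicate block, a batch term, each set of 3 replicates and each library left out were the alternatives. For ANXA2, a fit with the counts of its processed copies added to it was a further alternative. The edgeR and DESeq2 steps were tested on simulated data. Coordinates came from GENCODE and promoter sequences from RefSeq, both of GRCh38. The length in the FPKM values differed from the annotation used here for PLAT and ANXA2.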

Additional observations from a re-analysis of the deposited data

Results flagged for a closer look

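In SERPINB5, combination replicate 3 lay apart from the other libraries of its group, at 1176 normalized counts against 1322 to 1394. Of 32 groups of 6 libraries examined for the 8 genes, 1 held such a library, where chance gives about 1 in 20. The effect of EGCG differed with and without resveratrol for 2 of the 8 genes by the interaction test of edgeR with Benjamini-Hochberg adjustment. The difference was 0.5738 on the log2 scale for SERPINB2 (adjusted p = 0.0253) and 0.2494 for PLAU (adjusted p = 0.0589).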

How the results depend on the processing

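The numbers of members that passed for the combination against the control, resveratrol or EGCG stayed within 1.5 times under all 35 alternatives. For EGCG against the control, 0 members became 1 with the batch term (SERPINE2) and 0 to 2 with each library left out. For resveratrol, 6 became 3 with library size alone. For the interaction, 2 became 1 with library size alone (PLAU lost), 0 in replicates 1 to 3, 1 in replicates 4 to 6, 1 at an adjusted p under 0.05, and 1 to 2 with each library left out. Beyond the scaling and the smaller number of libraries, the cause was not tested.

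With the replicate number as a block, 1 member passed for EGCG (SERPINB5) and 7 for the combination against EGCG, and the interaction passed in 85 genes of the table instead of 41. No source says that a number marks a shared batch, and the correlation of deviations exceeded 0.1 in only 2 of 36 same-numbered pairs (median 0.0488), so the block was not used for the main values. As hints the other way, 14 of 24 libraries correlated best with their own number, and libraries of other numbers within a set of 3 replicates (median 0.0276) lay apart from those of the other set (-0.0406).

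Over the 8 genes and 6 comparisons, 480 values kept their direction and side of the threshold under these alternatives, 23 lost it, 9 gained it and 14 changed sign. With each library left out, these numbers were 1092, 21, 10 and 29. Reversed signs were of values that did not pass, except ANXA2 with the combination under library size alone (0.022). In replicates 1 to 3, PLAUR gave -0.0099 with EGCG and -0.038 with resveratrol, S100A10 -0.0095 with EGCG, and the interactions were -0.023 for SERPINE2, 0.034 for ANXA2 and 0.051 for S100A10. In replicates 4 to 6, SERPINB2 with the combination gave -0.068, ANXA2P1 -0.040, ANXA2P3 0.15, C10orf55 0.041, S100A10 for the combination against resveratrol -0.020, and the SERPINB5 interaction 0.037. The S100A10 interaction was 0.0041 with DESeq2, 0.0026 with its size factors, 0.0012 with at least 10 counts in every library and 0.00025 with the block. With each library left out, PLAUR ranged from -0.0086 to 0.075 with EGCG and -0.00087 to 0.083 with resveratrol, SERPINB2 with the combination from -0.032 to 0.055, S100A10 from -0.0015 to 0.020 with EGCG and -0.0013 to 0.023 for the combination against resveratrol, and C10orf55 with the combination from -0.20 to 0.057. The interactions ranged from -0.025 to 0.024 for SERPINB5, -0.022 to 0.0077 for ANXA2 and -0.013 to 0.012 for S100A10. Genes of few counts, such as C10orf55 and ANXA2P3, are limited by depth.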
